A study of Sus scrofa with 4 samples.

Results

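Dense hubs of open chromatin are 100-kb stretches of the pig genome in which at least 10 accessible regions were called in every library. To find them, peaks of the 4 libraries were joined wherever they overlapped by 1 bp or more, and each joined region with a peak in all 4 libraries (a shared region) was placed by its midpoint in a fixed 100-kb bin of chromosomes 1 to 18. Of 22667 bins, 979 (4.32%) held 10 or more shared regions and are called hubs; they were chosen by their number of shared peak calls, and peak strength, width and gene content played no part. They held 11109 of the 72213 shared regions (15.4%), out of 116392 joined regions in all.

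Accessibility was measured by ATAC-seq in porcine fetal fibroblasts from skin, the donor cells of a cloning study, to see what extra BRG1 does to open chromatin. The control group, labelled wild type, carried the vector pTK-642 (libraries control 1 and control 4), and the BRG1 group carried pTK-642-BRG1 (libraries BRG1 1 and BRG1 4). All cells were serum-starved. Whether the 2 libraries of a group are separate cultures is not labelled, so p-values reflect the spread between these libraries alone, and that spread may be technical. Where 4 values are listed in a row, they belong to control 1, control 4, BRG1 1 and BRG1 4, in that order.

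In ATAC-seq the Tn5 transposase cuts DNA that is not covered by nucleosomes, and the called peaks mark promoters, enhancers and other regulatory elements. BRG1 is the product of SMARCA4 and the motor subunit of the BAF complex, which slides and evicts nucleosomes at such elements. Elements that lie close together are known from 2 settings: gene-dense DNA, where many promoters sit side by side, and clusters of enhancers around genes that define a cell's identity or answer its signals.

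There were 102829 and 101377 peaks in the control libraries and 92315 and 87057 in the BRG1 libraries (1 and 4 of each) on these chromosomes. BRG1 4 stood apart by its wide peaks (median 542 bp, against 396 to 405 bp in the other 3). Across the 11109 hub regions, the rank correlation of peak strength was 0.881 to 0.887 for pairs with BRG1 4 and 0.940 to 0.957 for the other pairs, as a description of regions that share libraries. Among lists of cell type markers, 10 of 12 fibroblast genes had a shared region within 1 kb of an end of the gene model, against 3 of 8 keratinocyte, 3 of 9 endothelial, 6 of 10 immune, 4 of 8 skeletal muscle, 4 of 7 melanocyte and glia, and 5 of 8 adipocyte genes. Over all protein-coding genes that share was 69.6%.

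Hubs formed the upper tail of a skewed distribution. The mean was 3.19 shared regions per bin over the genome, the hub median was 11 and the densest bin held 19. Most hubs lay near the threshold: 798 of 979 held 10 to 12 shared regions and 54 held 15 or more. Just inside it were 378 bins with 10 shared regions, which held a mean of 12.7 and 12.6 peaks in controls 1 and 4, and 11.9 and 11.5 in BRG1 1 and BRG1 4. Just outside it were 528 bins with 9, with means of 11.6, 11.5, 10.8 and 10.3 peaks in the same order. The distribution thus has no step at the threshold, and a hub is a range of a continuous quantity.

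**Figure D1:**
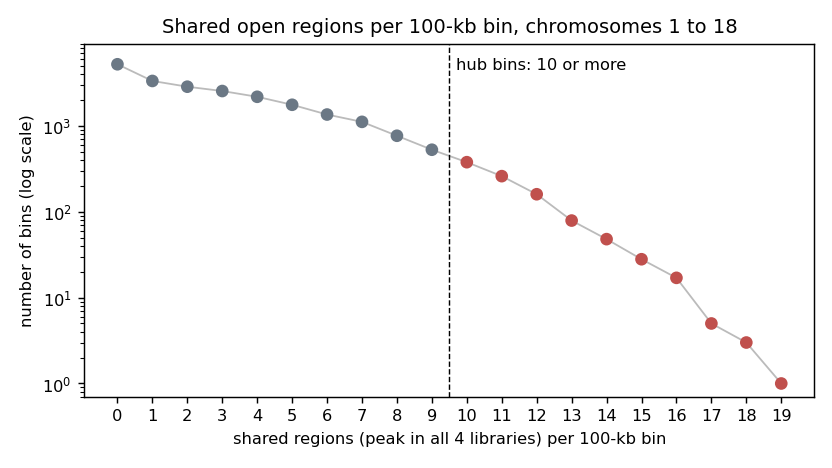
Number of 100-kb bins (log axis) by the number of shared regions they hold, with the hubs in red. The numbers fall from 528 bins with 9 shared regions to 378 with 10, with no gap at the threshold.

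Neighbouring hub regions lay a median of 5926 bp apart (quartiles 2806 and 10105 bp), against 13070 bp for neighbouring shared regions in general, a spacing that the choice of dense bins fixes. Width was not used to choose them. The joined hub regions had a median width of 712 bp and the other shared regions 708 bp, and 59 hub regions (0.531%) were 2 kb or wider against 0.371% of the others.

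Hubs followed gene density. A hub overlapped a median of 3 protein-coding gene models (mean 3.39, at most 17), and other bins with a shared region a median of 1 (mean 1.42). The share of bins that were hubs was 0.860% of bins with 0 genes, 2.49% with 1 gene, 9.25% with 3, 19.9% with 5 and 43.4% with 8 or more. Chromosome 12, with 18.2 genes per Mb, had 99 hubs in 616 bins (16.1%). Chromosome 11, with 4.08 genes per Mb, had 9 hubs in 792 bins (1.14%). In the outer 5 Mb of the chromosomes 5.89% of bins were hubs, against 4.18% of bins elsewhere.

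**Figure D2:**
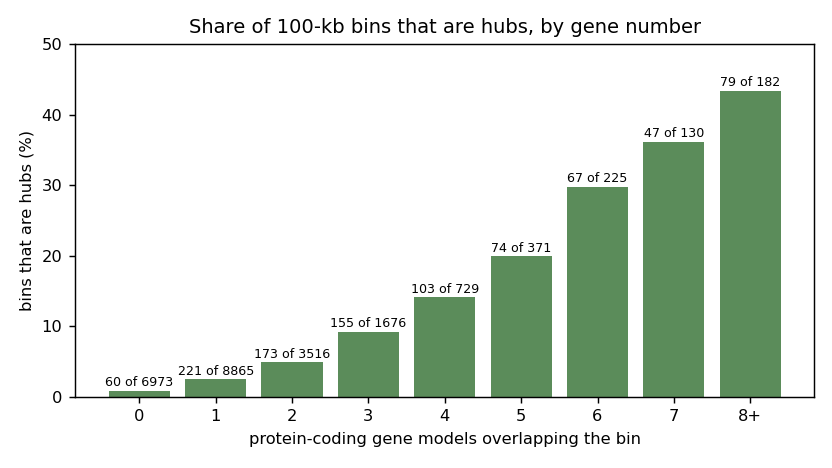
Share of 100-kb bins that were hubs, by the number of protein-coding gene models that overlap the bin (the last class is 8 or more). The share goes from 0.860% at 0 genes to 43.4% at 8 or more.

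Of 18722 protein-coding genes, 3161 (16.9%) overlapped a hub. Their models were shorter, with a median length of 13087 bp against 20738 bp over all genes. A shared region lay within 1 kb of an end of 2668 of them (84.4%, against 69.6% of all genes), which the choice of bins rich in shared regions in part fixes. Strand was not used, so an end can be either the start or the finish of a gene, and exons and introns were not assigned.

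Gene ends nevertheless accounted for a minority of the hub regions. Of the 11109, 2552 (23.0%, 95% Wilson interval 22.2% to 23.8%, counting error only) lay within 1 kb of a gene end, against 18.3% of all shared regions. The share was 18.02% in bins of 5 to 9 shared regions and 16.6% in bins of 1 to 4. Regions over 10 kb from any gene end made up 43.6% in hubs, 58.7% in bins of 5 to 9 and 69.3% in bins of 1 to 4. The median distance to a gene end was 7620 bp in hubs and 17212 bp over all shared regions. Gene models covered 56.5% of hub regions and 54.8% of all shared regions.

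The strength of each region was compared by rank, the percentile of its best −log10 p among the 72213 shared regions of the same library. The median rank of hub regions was 57.0 and 56.9 in the control libraries and 58.0 and 57.0 in the BRG1 libraries (1 and 4 of each). The other shared regions had medians of 48.5 to 48.8, so hub regions ranked higher in each library. The gap was found away from gene ends. Hub regions that were not at a gene end had medians of 51.3 to 52.3 against 42.9 to 43.4 for other shared regions of that kind. Hub regions at gene ends had medians of 77.7 to 79.6, below the 80.8 to 82.5 of the other gene-end regions. Hub regions supplied 19.01% to 19.35% of the strongest 10% of shared regions in a library and 10.6% to 12.3% of the weakest 10%, beside their 15.4% of all.

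The authors' fold enrichment went the other way. Its median in hub regions was 8.92 and 9.20 in controls 1 and 4, and 9.08 and 7.21 in BRG1 1 and BRG1 4, and in other shared regions 10.3, 10.5, 10.2 and 8.13. The fold is taken over the background of its own library near the peak and was not compared between libraries.

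The densest hub lay on chromosome 7 from 76100001 to 76200000 (Sscrofa11.1). It contained 19 shared regions, 11 of them at gene ends. Its genes were MMP14, a membrane-bound protease that cleaves collagen, PRMT5, an arginine methyltransferase, LRP10, REM2, RBM23, the mitochondrial ribosomal protein gene MRPL52 and the amino acid transporter gene SLC7A7. It held 24 and 25 peaks in the control libraries and 24 and 20 in the BRG1 libraries (1 and 4 of each). Only BRG1 4 lay outside the range of the controls. The mean rank of its regions ran from 17.2 to 99.4, so strong and weak regions lay side by side.

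Several of the densest hubs held few gene ends. A bin of chromosome 7 from 39000001 to 39100000 held 18 shared regions, none of them at a gene end, with C7H6orf223 its sole protein-coding gene. VEGFA, which encodes the main growth factor of blood vessels, lay 237.7 kb below it and MRPL14, a mitochondrial ribosomal protein gene, 25.05 kb above it. Its peaks numbered 24 and 22 in controls 1 and 4, and 23 and 24 in BRG1 1 and BRG1 4. A bin at LRRC74A (chromosome 7, 100000001 to 100100000) held 17 shared regions and also none at a gene end, with 21, 19, 19 and 17 peaks in the same order. A bin at SEPT9, a filament-forming septin gene (chromosome 12, 4300001 to 4400000), held 18 with 2 at gene ends, and 21, 20, 21 and 19 peaks. In these 3 hubs the values of the groups overlapped.

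Other leading hubs were packed with gene ends. On chromosome 6 from 27800001 to 27900000, 17 shared regions, 12 of them at gene ends, lay among 11 genes that include E2F4, a repressor of cell cycle genes, TRADD, an adaptor of the TNF receptor, and FHOD1, a formin that assembles actin. Peaks numbered 20, 20, 21 and 17 in control 1, control 4, BRG1 1 and BRG1 4. On chromosome 12 from 53300001 to 53400000, 17 regions lay around the clock gene PER1, HES7, VAMP2, ALOX12B, ALOXE3, TMEM107 and BORCS6, with 20, 20, 19 and 19 peaks. Both BRG1 libraries were below both controls in the PER1 hub, by 1 peak.

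Further leading hubs held few genes each. CSRP1, PHLDA3, TNNI1 and NAV1 shared a hub of 18 on chromosome 10 from 23800001 to 23900000, with 19, 21, 21 and 19 peaks, and the groups overlapped. ACVR1B, an activin receptor gene, lay with GRASP on chromosome 5 from 17300001 to 17400000 in a hub of 17 regions with 21, 22, 18 and 18 peaks, where both BRG1 libraries were lower. A hub of 16 on chromosome 1 from 268000001 to 268100000 held LRSAM1 and FAM129B, with 19, 20, 19 and 17 peaks.

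Hubs also adjoined each other. Of the 979, 393 (40.1%) touched at least 1 other hub, and 43 runs spanned 3 or more bins. The longest run covered 6 bins on chromosome 2 from 6400001 to 7000000, with 78 hub regions. It held FOSL1, a subunit of the AP-1 factor, CFL1, the actin-severing cofilin, EFEMP2, an elastic fibre protein, RELA, a subunit of NF-kappaB, KAT5, LTBP3, which binds latent TGF-beta, the BAF subunit gene DPF2 and CAPN1, among others. Its peaks numbered 105 and 106 in the control libraries and 98 and 93 in the BRG1 libraries (1 and 4 of each), so both BRG1 libraries were below both controls. Within it, the bin of FOSL1 held 16 shared regions with 21, 23, 20 and 18 peaks. The bin of LTBP3 (6700001 to 6800000) also held 16, with 26, 25, 20 and 24 peaks.

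Runs of 5 bins lay on chromosome 2 from 77200001 to 77700000 (62 hub regions, with CNN2, STK11, GPX4 and PTBP1), on chromosome 2 from 65800001 to 66300000 (59, with IER2, JUNB, NFIX and CALR), on chromosome 1 from 268300001 to 268800000 (56, with ENG and DNM1) and on chromosome 6 from 54500001 to 55000000 (56, with RPL13A, RRAS and PRMT1). Peaks in the run of JUNB, another AP-1 subunit gene, numbered 77 and 71 in controls 1 and 4, and 72 and 66 in BRG1 1 and BRG1 4, and the groups overlapped. In the run of ENG, which encodes the TGF-beta co-receptor endoglin, they numbered 71, 71, 64 and 60 and did not overlap.

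**Figure D3:**
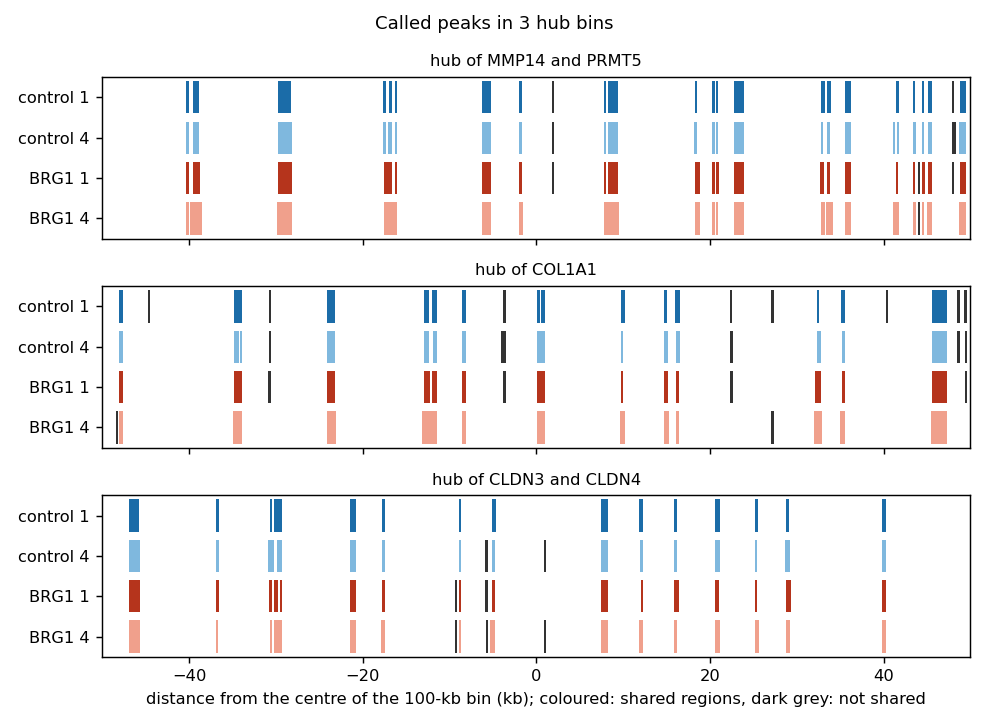
Called peaks in 3 hubs, as bars along the distance from the centre of the bin in kb, with 1 row per library. Coloured bars belong to shared regions and dark grey bars to regions not called in all 4 libraries. The COL1A1 hub had 22, 19, 17 and 14 peaks in control 1, control 4, BRG1 1 and BRG1 4, and 8, 5, 4 and 2 of its regions that were not shared were called there.

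A hub without a protein-coding gene was uncommon. There were 60 such hubs (6.13%), while 23.5% of the other bins with a shared region had none. Those described here were picked once their values had been seen. On chromosome 15 from 136900001 to 137000000, 14 shared regions lay 11.5 kb below COL6A3, a collagen VI gene, with 17 and 16 peaks in the control libraries and 18 and 15 in the BRG1 libraries (1 and 4 of each). On chromosome 1 from 273800001 to 273900000, 13 lay between RXRA and COL5A1, with 16, 15, 15 and 15 peaks. On chromosome 2 from 49100001 to 49200000, 13 lay between AMPD3 and ADM, the adrenomedullin gene, with 17, 17, 15 and 15 peaks. The first pair of these hubs lies near collagen genes whose models also overlap a hub. For COL6A3 that overlap was slight, with 1 of the 8 shared regions in its model being a hub region. For COL5A1 it was 6 of 9.

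A few long genes carried many hub regions inside their models, and these too were chosen after their values were seen. LHFPL2 held 25, ABR 24, and FYN, JARID2 and LTBP1 21 each. FYN encodes a kinase of the Src family and JARID2 a subunit of Polycomb complex PRC2. LOXL2, which cross-links collagen, held 19 in 105 kb of model. Peaks in the LHFPL2 model numbered 26 and 27 in controls 1 and 4, and 26 and 27 in BRG1 1 and BRG1 4, so the groups overlapped. Those in FYN numbered 36, 35, 30 and 29, with both BRG1 libraries lower. In all, 56 hubs (5.72%) lay wholly inside 1 gene model.

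The genes of hubs were then read against 16 lists of gene function, with 487 of 507 entries matched to a gene model. These lists were chosen with earlier results of these data known, and a gene counts when its model overlaps a hub, wherever in the bin the regions lie. The share over all protein-coding genes, 16.9%, is the level to read them against. A long model overlaps more bins and so can meet a hub more easily. Median model lengths were 75.5 kb for TGF-beta, 72.1 kb for integrin, 56.0 kb for matrix, 46.0 kb for Hippo and 42.9 kb for actin genes. Over all genes it was 20.7 kb. The growth factor list also had long models (54.1 kb), with 14.3% in hubs. The part of length in these shares was not tested.

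Genes of AP-1 and the serum response, many of which are switched on within minutes of a growth signal, stood in hubs for 16 of 28 (57.1%). They have short models (median 5.57 kb against 20.7 kb over all genes) and lie in bins with a median of 3 genes, as all genes do. DUSP1, FOSL1 and IER3 lay in hubs of 16 shared regions, FOSB and IER2 in hubs of 15, and EGR3 in 14. The hub of DUSP1, a phosphatase that switches off MAP kinases, held 18 and 18 peaks in the control libraries and 19 and 19 in the BRG1 libraries (1 and 4 of each), so both BRG1 libraries were above both controls. The hub of IER3 held 20, 21, 17 and 17, and that of FOSB 23, 21, 20 and 17, with both BRG1 libraries lower. Over the 15 hubs of this list, 5 were lower and 1 was higher in both BRG1 libraries, where 27.9% of all hubs were lower and 2.35% higher (21% and 1.48% of all bins with a shared region). In the other 9 the groups overlapped.

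Of the HOX genes, which give cells their place along the body axis, 22 of 36 (61.1%) were in hubs, but those 22 lay in only 3 bins and are not 22 independent cases. The HOXA cluster had 9 of 11 genes in a hub, HOXB 6 of 8, HOXD 7 of 8 and HOXC 0 of 9. The HOXB hub held 11 shared regions and 22, 19, 21 and 18 peaks in control 1, control 4, BRG1 1 and BRG1 4. The HOXA hub held 10 with 13, 13, 12 and 11 peaks, and the HOXD hub 10 with 15, 13, 15 and 10. All 3 were within 1 region of the threshold, and with a −log10 q of at least 5, or with lists of equal length, 6 HOX genes remained in hubs in place of 22.

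Structural genes of fibroblasts were also in hubs. Of the matrix genes, 10 of 28 (35.7%) were: LOXL2 and SPARC in hubs of 14 shared regions, COL1A1, COL6A3 and FBN1 in hubs of 12, ELN in 11, and TNC, COL5A1, FBLN2 and LOXL1. Peaks in the SPARC hub numbered 15 and 15 in controls 1 and 4, and 14 and 14 in BRG1 1 and BRG1 4. Those in the hub of FBN1, the fibrillin gene, numbered 17, 16, 14 and 15. In 6 of the 10 matrix hubs both BRG1 libraries were below both controls (LOXL2, SPARC, COL1A1, COL6A3, FBN1 and COL5A1), beside 27.9% of all hubs, and in 0 were they above. Some of these gaps were small, as in the COL5A1 hub with 13, 13, 12 and 11 peaks. Only 1 hub region lay inside the COL6A3 model, so the peaks of that hub are mostly not its own. Over the 129 hubs of the 16 function lists, with each gene in its densest bin, 43 (33.3%) were lower and 4 (3.10%) higher. Of the actin cytoskeleton genes, 14 of 36 (38.9%) were in hubs, led by MYH9 with 15 shared regions, CNN2 with 14, FLNC with 13, CNN1 and ZYX with 12, and PDLIM7 with 11. The MYH9 hub, at the gene for non-muscle myosin, held 18, 18, 17 and 18 peaks. In 5 of the 14 both BRG1 libraries were lower.

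TGF-beta pathway genes were in hubs for 10 of 23 (43.5%). The ligand gene TGFB1 lay in a hub of 13 shared regions (17, 18, 16 and 14 peaks in control 1, control 4, BRG1 1 and BRG1 4), the receptor gene TGFBR2 in a hub of 12 (16, 16, 14 and 15) and the signal transducer gene SMAD3 in a hub of 13 (16, 17, 15 and 16). LTBP2 and the target gene ID1 were in hubs as well. Both BRG1 libraries were lower in the hubs of TGFB1 and TGFBR2 and higher in that of LTBP1 (11, 11, 12 and 13 peaks). Of the Hippo pathway genes, 6 of 19 (31.6%) were in hubs: AMOTL2, STK4, TEAD1, AXL, TEAD3 and VGLL4. Of the integrin and adhesion genes, 6 of 22 (27.3%) were: SDC4, CAVIN1, CD44, ITGA5, ITGB3 and ITGA11. Of the growth factor receptor and signal genes, 4 of 28 (14.3%) were: LIF, IGFBP5, IGF1R and PDGFRB.

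Among regulators of chromatin and transcription, 10 of 30 BAF complex genes (33.3%) were in hubs. They included DPF2 with 16 shared regions, ARID1A with 12 (14, 15, 13 and 15 peaks in control 1, control 4, BRG1 1 and BRG1 4), SMARCA4, ACTL6B, BICRA and BCL7C. SMARCA4, the gene that was over-expressed, spans 2 bins of chromosome 2. Peaks do not measure expression, so the over-expression itself was not checked here. The bin from 69700001 to 69800000 held 3 shared regions and 3, 4, 4 and 5 peaks. The bin from 69800001 to 69900000 was a hub with 13 and 16, 15, 15 and 13 peaks, but 0 of those regions lay inside the SMARCA4 model, and 4 gene models overlap that bin. Of the histone modifier genes, 10 of 45 (22.2%) were in hubs, among them DNMT1, HDAC4, HDAC5, KAT2A, KAT8 and KDM6B. Of the mesenchymal transcription factor genes, 9 of 40 (22.5%) were, led by NFIX and SNAI1 with 15 and followed by ETS1, CREB3L1, EBF2 and NFIC.

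Genes used in nearly all cells also lay in hubs, with 20 of 54 ribosomal protein genes (37.0%, led by RPL18 and RPL28 with 15), 5 of 12 housekeeping genes (41.7%, among them GAPDH, RPLP0 and YWHAZ) and 10 of 36 cell cycle genes (27.8%, led by E2F4 with 17 and TOP2A with 16). Both BRG1 libraries were higher in the hub of GAPDH (11, 11, 13 and 12 peaks). Pluripotency genes were in hubs for 3 of 28 (10.7%) and early embryo lineage genes for 2 of 22 (9.09%, ELF3 and KRT18). The 3 were DNMT3L, KLF2 and POU5F1. The hub of POU5F1, the OCT4 gene, lay among CDSN, TCF19, CCHCR1, PSORS1C2 and C7H6orf15 on chromosome 7 from 23500001 to 23600000. Of its 10 shared regions, 1 lay inside the POU5F1 model, and 0 ends of POU5F1 had a shared region within 1 kb. In all, 7 gene models overlap that bin. The hub held 18 and 15 peaks in controls 1 and 4, and 12 and 11 in BRG1 1 and BRG1 4. Of its 6 regions not called in every library, 4 were called in both controls and neither BRG1 library.

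**Figure D4:**
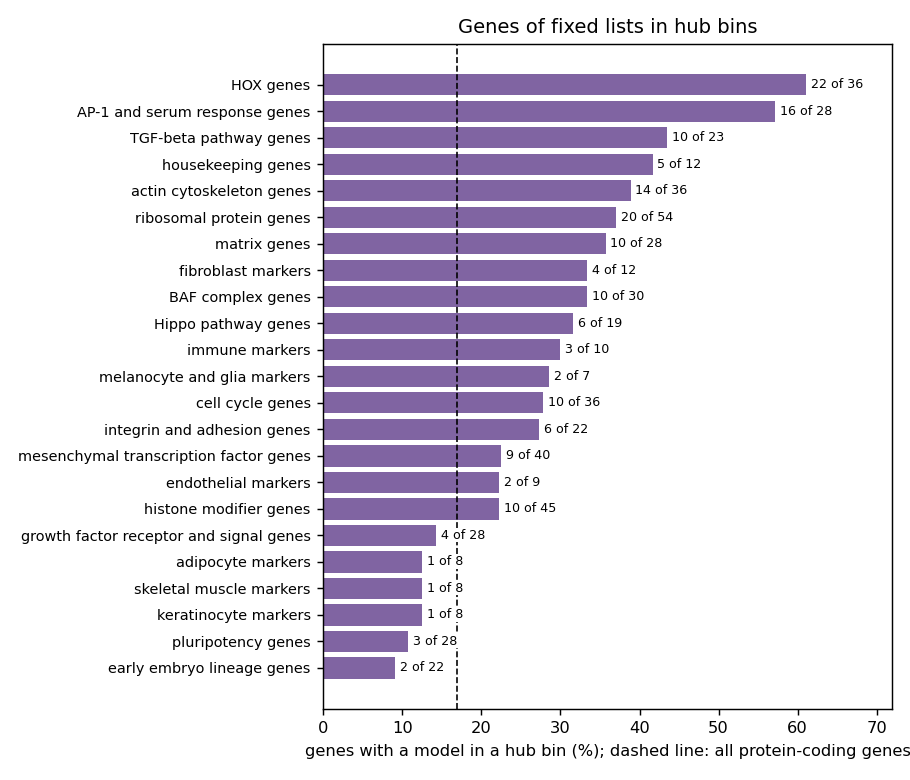
Share of each gene list whose models overlap a hub, as bars in percent with the number of genes beside them. The dashed line is the 16.9% of all protein-coding genes; AP-1 and serum response genes (57.1%) and HOX genes (61.1%, in 3 bins) reach farthest and early embryo lineage genes (9.09%) least far.

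Markers of other cell types were in hubs too, with 1 of 8 keratinocyte (SFN), 2 of 9 endothelial (PECAM1 and ERG), 3 of 10 immune (CD14, CSF1R and SPI1), 1 of 8 skeletal muscle (DES), 2 of 7 melanocyte and glia (PMEL and GFAP) and 1 of 8 adipocyte (ADIPOQ) genes. Fibroblast markers were in hubs for 4 of 12 (COL1A1, S100A4, PDGFRB and VIM). Beside the 16.9% of all genes, the shares were 33.3% for fibroblast, 30.0% for immune, 28.6% for melanocyte and glia, 22.2% for endothelial and 12.5% for each of the other 3 lists, on at most 12 genes each. CSF1R and PDGFRB, neighbouring genes, share 1 hub.

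The calls in hubs were next compared between BRG1 and control libraries. Hubs held 13863 and 13780 peaks in controls 1 and 4, and 13213 and 12494 in BRG1 1 and BRG1 4. Both BRG1 libraries were lower, with means of 12854 ± 508 against 13822 ± 58.7 (SD, n = 2 each), a ratio of 0.930 (two-sided exact permutation p = 0.33). With 2 libraries against 2, 0.33 is the smallest p this test can give, so no difference of this kind could pass 0.05. Outside hubs the ratio was 0.870, with 88966 and 87597 peaks in the controls and 79102 and 74563 in the BRG1 libraries (exact permutation p = 0.33). A smaller gap in hubs is in part fixed by the choice, since each hub region must have a peak in all 4 libraries.

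Hubs took a slightly larger share of the peaks of the BRG1 libraries, with 13.5% and 13.6% of the peaks in the control libraries and 14.3% and 14.4% in the BRG1 libraries (1 and 4 of each). The difference of the means was 0.795 percentage points (exact permutation p = 0.33, n = 2 each). It turned to −0.249 when the lists were cut to the same number of top peaks.

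Peak length in hubs followed BRG1 4 rather than the groups. Peaks covered 7418 and 7203 kb of hubs in controls 1 and 4, and 7082 and 8106 in BRG1 1 and BRG1 4, a ratio of 1.04 for BRG1 over control (exact permutation p = 1, n = 2 each). Without BRG1 4 the ratio was 0.965. The median width of the peaks over hub regions was 508, 496, 501 and 639 bp in the same order, a difference of 68 bp (exact permutation p = 0.667, n = 2 each) that became −5 bp without BRG1 4. Where 2 or more peaks were called in 1 hub region, BRG1 4 also had fewest, with 231 such regions against 631 in control 1, 644 in control 4 and 492 in BRG1 1. The part of peak width in the numbers of peaks per hub was not tested.

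By the rule a shared region has a peak in all 4 libraries, which in large part fixes where the gap can lie. The regions that were not shared carried most of it. Hubs held 2092 and 1994 peaks in such regions in the control libraries and 1599 and 1149 in the BRG1 libraries (1 and 4 of each), a ratio of 0.673 (exact permutation p = 0.33, n = 2 each), against 0.576 outside hubs. Of the regions in hubs that were not shared, 106 were missing in control 1 alone, 120 in control 4, 234 in BRG1 1 and 697 in BRG1 4. Outside hubs these numbers were 1095, 1289, 2937 and 6675, with BRG1 4 again the highest. Regions called in both BRG1 libraries and neither control numbered 100 in hubs (0.681% of 14682 joined regions, against 0.736% over the genome). Regions called in both controls and neither BRG1 library numbered 335 (2.28%, against 4.38%). There were 3.35 control-only regions for each BRG1-only region in hubs, 4.60 in bins of 5 to 9 shared regions and 7.29 in bins of 1 to 4. These shares also depend on the rule, since a hub has more shared regions by choice.

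Hub by hub, both BRG1 libraries held fewer peaks than both controls in 273 of 979 (27.9%), where 21% of all bins with a shared region did, and more in 23 (2.35%), where 1.48% did. The share that was lower was 23.8% in bins of 5 to 9 shared regions and 18.9% in bins of 1 to 4, and the share that was higher was 1.93% and 1.17%. Both shares thus went with the number of calls that chose the hubs, and nothing particular to hubs is read from them. With lists of the same length, 783 bins were hubs, of which 105 (13.4%) were lower and 50 (6.39%) higher, where 7.03% and 7.20% of all bins were. The gap between the counts in hubs was thus smaller with lists of the same length, but lower hubs still outnumbered higher ones. Over all bins the shares in either direction were then close to each other. The cause was not tested.

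The largest difference in mean peak number with BRG1 lower was in the hub of IGFBP6 and TNS2 on chromosome 5 from 18300001 to 18400000. IGFBP6 binds insulin-like growth factor II and TNS2 links integrins to actin, and SPRYD3, SOAT2 and CSAD lie beside them. The hub held 20 and 20 peaks in controls 1 and 4, and 13 and 15 in BRG1 1 and BRG1 4, with 11 shared regions and 4 called in both controls alone. Of the next 4, the hub of POU5F1 is given above. The hub of COL1A1, the main collagen gene of skin, with SAMD14, PPP1R9B and SGCA, lay on chromosome 12 from 26300001 to 26400000. It held 22, 19, 17 and 14 peaks, with 12 shared regions and only 1 called in both controls alone. The hub of CYGB, ST6GALNAC1, ST6GALNAC2 and PRCD on chromosome 12 from 4900001 to 5000000 held 17, 20, 14 and 13. A bin with the gene models LOC106510284 and LOC100156062 (chromosome 5, 11500001 to 11600000) held 15, 17, 12 and 10. It lies 43.5 kb above MYH9, which does not overlap it. In all 5 the highest BRG1 library stayed at least 2 peaks below the lowest control.

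Differences with BRG1 higher were smaller. The hub of RAB10, a GTPase of membrane traffic, and KIF3C, a kinesin, on chromosome 3 from 112900001 to 113000000 held 10 and 12 peaks in controls 1 and 4, and 13 and 14 in BRG1 1 and BRG1 4. The hub of the tight junction genes CLDN3 and CLDN4, with ABHD11, METTL27 and TMEM270, on chromosome 3 from 11000001 to 11100000, held 15, 17, 18 and 18. The hub of CEACAM19 and IGSF23 on chromosome 6 from 51100001 to 51200000 held 13, 13, 16 and 14. The hub of DST, a cytoskeletal linker gene, and BEND6 on chromosome 7 from 28800001 to 28900000 held 12, 12, 13 and 15. That of CNTFR, ENHO and DNAI1 on chromosome 10 from 32200001 to 32300000 held 10, 11, 12 and 13. In each of the 5 the lowest BRG1 library was 1 peak above the highest control.

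**Figure D5:**
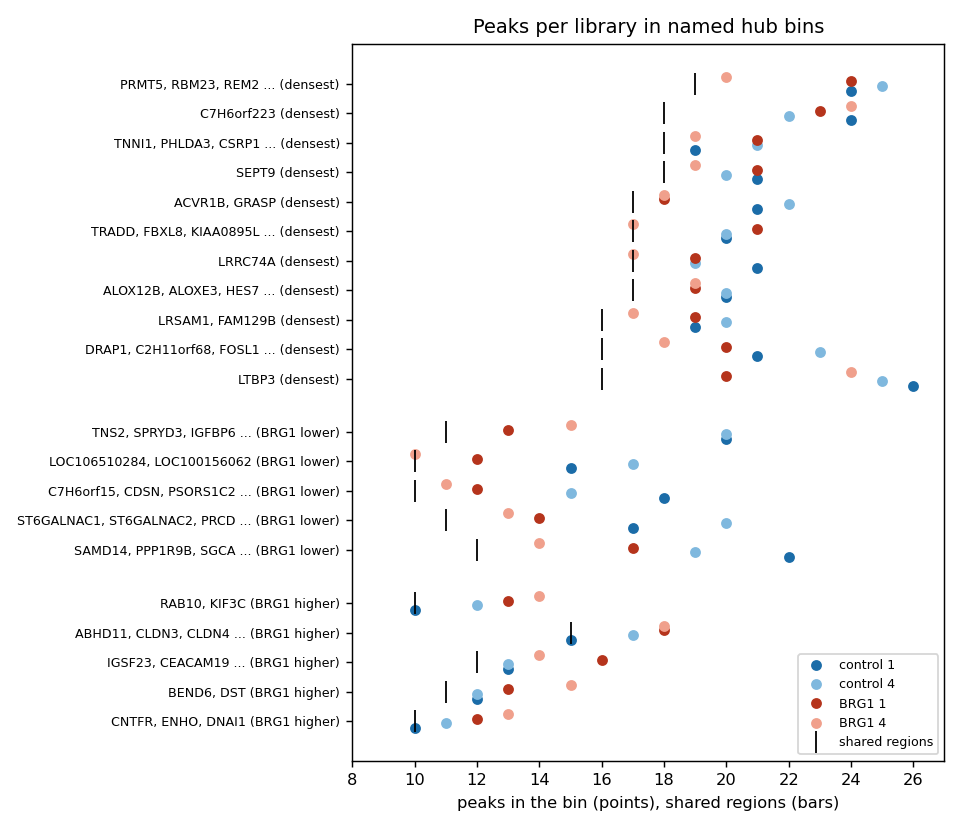
Peaks per library in 11 of the densest hubs and in the 5 hubs with the largest difference in each direction between groups that did not overlap, as points against the number of peaks, with short vertical bars for the shared regions. In the IGFBP6 hub the controls sit at 20 and the BRG1 libraries at 13 and 15, while in most of the densest hubs the points of the groups overlap.

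Ranks were taken over the same 72213 shared regions in each library. The median rank of hub regions differed by 0.558 between the group means (exact permutation p = 0.667, n = 2 each), and by −0.0271 without BRG1 1. Both BRG1 libraries ranked above both controls in 2328 hub regions (21.0%), where 19.4% of all shared regions did, and below in 1946 (17.5%), where 18.7% did. The difference of group means per hub region had a median of 0.20 rank points, with 5th and 95th percentiles of −14.5 and 15.5. At gene ends 22.2% of hub regions ranked higher and 14.3% lower, close to the 22.0% and 13.7% of other gene-end regions. Away from them 20.6% ranked higher and 18.5% lower, against 18.4% and 20.04% of the others.

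Single regions differed by more. The largest difference with BRG1 higher was in a region inside MACF1, an actin and microtubule linker gene (chromosome 6, 95041253 to 95041884), at 4.70 and 23.2 in controls 1 and 4, and 50.3 and 53.5 in BRG1 1 and BRG1 4. A region 33.6 kb from MED27 (chromosome 1, 271690374 to 271691266), in the hub of RAPGEF1, had ranks of 14.2, 17.0, 36.1 and 70.6. The next were a region near ARMC12, in the hub of FKBP5, which encodes a co-chaperone of steroid receptors (7.09, 26.8, 44.3 and 62.4), one inside ERI1 (15.1, 18.5, 53.6 and 50.5) and one whose nearest gene end was that of UPK1B, in the hub of ARHGAP31 (9.19, 10.02, 34.6 and 55.0). In these 5 regions no control library ranked above 26.8.

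The largest difference with BRG1 lower was in a region 13.6 kb from ADIPOQ, the adiponectin gene (chromosome 13, 124659841 to 124660205), with ranks of 59.4 and 64.2 in the control libraries and 17.5 and 13.6 in the BRG1 libraries (1 and 4 of each). A region 6.19 kb from DYM (chromosome 1, 99030852 to 99031717) had ranks of 55.4, 58.4, 16.6 and 12.2. Regions near TMUB2 (58.8, 67.8, 34.5 and 15.3), inside KIAA0232 (46.1, 60.9, 34.6 and 0.0450) and inside SNCB (58.2, 59.2, 40.1 and 8.80) followed, and in these 3 BRG1 4 lay well below BRG1 1. These regions were picked as the extremes of 11109, and their values are a description.

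The strongest hub regions by mean rank were alike in all 4 libraries. A region outside gene models and 1221 bp from an end of CIC, a transcriptional repressor gene (chromosome 6, 49665367 to 49666570), had ranks of 99.91 to 99.98. Its folds were 13.9 and 14.6 in controls 1 and 4, and 13.4 and 16.4 in BRG1 1 and BRG1 4. A region in FBRS on chromosome 3 and one at an end of CYTH2 on chromosome 6 also ranked at 99.86 or higher in every library. The 2 highest mean ranks among hub regions were in the first bin of chromosome 8, near PIGG.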

How the data were processed

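ATAC-seq peaks of 2 BRG1 and 2 vector control libraries were analysed. The authors deposited 1 narrowPeak list per library. FastQC, BWA, Bowtie, SAMtools, MACS2 and the build Sscrofa11.1 are named with no version or role, per the submitters' processing notes. Each deposited peak has a fold (a ratio of its signal to local background), a −log10 p-value, a −log10 q-value and a score from the authors' caller, and these served to rank, filter or describe peaks of 1 library at a time. Settings of the caller, treatment of duplicates and any Tn5 shift, which can alter the number and width of peaks, were not given in the sources used here. Depth is unknown, as the files hold no read counts, so no value has a counting interval beyond the share of regions at gene ends.

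Peaks were joined by overlap of at least 1 bp. Regions and peaks were placed in 100-kb bins by their midpoints. Rank is the percentile of the best −log10 p in a region among all shared regions of a library. Gene models came from a RefSeq table of Sscrofa11.1 that gives no strand or exon. A gene end lies within 1 kb of either end of a model. Of 573 list entries, 549 matched a gene. Two-sided exact permutation tests compared the group means over libraries, in Python 3.11.15 with scipy 1.17.1, numpy 2.4.6 and pandas 2.3.3. Counts are set beside the same count over all features. The scripts were tested on simulated data. No 2 lists shared over 0.202% of their intervals, so each library was counted once. A comparison of promoter motifs was planned and not run, because no promoter sequence was used here.

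The members and gene lists were chosen with earlier results of these data known. Some genes and 1 hub that the naming rule takes are not reported here. The genes named are those of the 12 densest hubs, of the 5 hubs with the largest group difference in each direction without overlap and of the 5 longest runs, the genes at the 5 regions of highest rank and at the 5 of largest rank change in each direction, up to 6 genes per list, and SMARCA4. Genes and hubs outside this rule were picked once their values had been seen. They were TNC, COL5A1, FBLN2, LOXL1, LTBP1, the neighbouring genes VEGFA and MRPL14, and the markers. Those of hubs without a gene and those of the most hub regions in a model were picked in the same way. Other settings tried were a −log10 q of at least 5, lists of equal length, an overlap of 50%, thresholds of 8 and 12, bins that start at 50 kb, a gene-end window of 3 kb, a replicate block and leaving out each library.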

Additional observations from a re-analysis of the deposited data

How the results depend on the processing

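With a −log10 q of at least 5, 736 of the 979 hubs (75.2%) remained, with 1.63% of hubs BRG1-higher, 60 BRG1-only regions and 24.7% of regions at gene ends. With lists of equal length 783 (80.0%) remained, with 105 BRG1-lower (13.4%) and 50 BRG1-higher hubs (6.39%), 152 control-only regions, 24.6% at gene ends and a difference in the share of peaks of −0.249 percentage points; 6 HOX genes remained under either setting. The rank difference was 0.294 with equal lengths and 0.885 with a threshold of 12. A threshold of 8 gave 2275 hubs, 22005 regions, 5941 genes, 3895 regions of lower and 4497 of higher rank, 183 BRG1-only and 774 control-only regions and 21.3% at gene ends. A threshold of 12 gave 341, 4469, 1250, 774, 925, 46, 130 and 24.2% in the same order, and left 0 HOX, 0 histone modifier and 1 Hippo gene in hubs (6 of AP-1, and 5 each of the matrix, actin and TGF-beta lists); 26.5% and 28.2% of hubs were BRG1-lower and 1.98% and 2.93% BRG1-higher, and the share of peaks differed by 1.37 and 0.355 percentage points. With bins that start at 50 kb, 1.57% of hubs were BRG1-higher. A window of 3 kb put 33.7% of hub regions at gene ends, against 24.7% of all shared regions.

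Leaving out 1 library at a time, with shared regions called in the other 3, gave 1045 to 1418 hubs, 36.7% to 57.0% of them BRG1-lower and 5.598% to 9.73% BRG1-higher, 3349 to 5563 regions of lower and 3812 to 6415 of higher rank, 219 to 584 BRG1-only and 772 to 1195 control-only regions and 21.6% to 22.5% at gene ends. These counts rise by construction, since fewer libraries have to meet the rule. BRG1-lower hubs stayed above the share of all bins (41.6% against 33.7% without control 1, 44.5% against 36.9% without control 4, 57.0% against 40.7% without BRG1 1 and 36.7% against 30.0% without BRG1 4). With all 4 libraries this share went with the number of calls that chose the hubs, so nothing particular to hubs is read from it. Group differences ran from −0.0271 to 0.926 in rank, 0.965 to 1.11 in covered length and −5 to 132 bp in width, and turned without BRG1 1 (rank) or BRG1 4 (length and width); the cause was not tested. The ratio of peaks in hubs ran from 0.903 to 0.953.

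What the numbers 1 and 4 mark is not labelled, and 2 pairs cannot tell whether they pair the libraries. The deviations of same-numbered libraries correlated at −0.0347 over ranks and 0.0160 over peak numbers of hubs. With the replicate number as a block, the ratio of peaks in hubs was 0.930 and the difference in share 0.795 (exact sign-flip permutation p = 0.5 each, the smallest 2 pairs allow, n = 2). Covered length was 1.04, width 68 bp and rank 0.558. No call changed. With 2 libraries a group, no test could pass 0.05.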

Other observations

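The regions in this paragraph were picked after their values were seen, apart from the pair at PIGG, and are given as values. On chromosome 8 the first bin, with the genes PIGG and PDE6B, held the 2 hub regions of highest mean rank. They ran from 10598 to 11865 and from 3533 to 4225 (Sscrofa11.1). Their ranks were 99.93 to 99.99 in the 4 libraries, while their folds were 6.15 and 4.95 in control 1, 5.85 and 4.89 in control 4, 6.13 and 4.70 in BRG1 1 and 6.65 and 5.22 in BRG1 4. Over all hub regions the median folds were 8.92 and 9.20 in controls 1 and 4, and 9.08 and 7.21 in BRG1 1 and BRG1 4, above both in each library. On chromosome 9 from 63400001 to 63500000, a hub of 13 shared regions had no gene model, with GUCY1A2 889 kb below and MROH9 120 kb above it. It held 25 and 21 peaks in controls 1 and 4, and 19 and 20 in BRG1 1 and BRG1 4, and its regions had a median width of 389 bp against 712 bp over hub regions.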
